A study of Mus musculus with 7 samples.

Results

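The carnitine shuttle genes were examined in the livers of mice without TET1, an enzyme that oxidises methylated cytosine in DNA. The 8 genes, a list of named genes of carnitine supply and acyl transfer that was drawn up with earlier results of these data known, were Cpt1a, Cpt1b, Cpt2, Crat, Crot, Slc22a5, Bbox1 and Tmlhe, and all 8 were found by symbol among 51426 genes and passed the filter on low counts that left 14754 genes to test. Liver mRNA had been sequenced from 3 WT and 4 TET1 KO male mice, all of them fed a high-fat diet (HFD) for 16 weeks from 8 weeks of age, so that the HFD is shared by both groups and no chow-fed liver is part of the comparison. The labels give the strain as C57BL/6J and the knockout genotype as TET-1-TKO, which is a whole-body knockout. The study writes the sequenced groups as TET1 -/- and TET1 wt/wt, its notation for the B6;129S4-Tet1tm1.1Jae/J allele with littermate controls and not for its β-actin Cre line. Loss of TET1 in hepatocytes and in other organs therefore cannot be told apart, and in bulk tissue fewer cells of a type and less RNA per cell cannot be told apart.

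Long-chain fatty acids enter mitochondria only as carnitine esters. Carnitine is taken up from blood by SLC22A5 or made from trimethyllysine in a pathway that opens with TMLHE and closes with BBOX1. CPT1, on the outer membrane, links the acyl group to carnitine and is inhibited by malonyl-CoA, and CPT2, on the inner membrane, returns it to coenzyme A. CPT1A is the liver form and CPT1B the muscle form, which is more sensitive to malonyl-CoA. CRAT handles short chains, with acetyl-CoA the best known, and CROT handles the medium chains left by peroxisomal oxidation.

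Libraries held between 15005277 and 22746138 counts. Values below are TMM-normalized CPM, that is counts scaled to library size, a fold change is the log2 ratio of TET1 KO to WT from edgeR's quasi-likelihood test, and a gene was called at an adjusted p under 0.05 over all 14754 genes. Tet1 itself had 1 to 4 counts in every liver of both genotypes, which is too few to check the labels (exact permutation test, two-sided, p = 0.686, with 0.0286 the smallest p of 35 splits). The hepatocyte markers found, 9 of 10, summed to between 72439 and 91912 CPM in all livers. TET1 KO replicate 2 stood apart in adipocyte markers, with a sum of 37.3 CPM, of which Ucp1 made up 18.6 CPM, against at most 0.250 CPM in the other TET1 KO livers. The WT sums of 1.05 to 12.6 CPM were mostly Cidea (0.883 to 11.3 CPM), with Adipoq and Plin1 at 0 counts in WT replicates 1 and 3 and at 9 and 4 counts in WT replicate 2, where Lep had 17 counts. The summed cholangiocyte markers were higher in every TET1 KO liver, at 46.1 to 68.0 CPM against 29.7 to 37.8 CPM. Spp1 made up most of that sum. Sox9 (9.46 to 20.9 CPM against 4.15 to 8.06 CPM in WT), Spp1 and Epcam were higher in every TET1 KO liver, Krt7 and Krt19 overlapped, Krt19 and Epcam were highest in TET1 KO replicate 4 (6.68 and 4.87 CPM), and edgeR called 0 of the 5 (4 were higher at an unadjusted p under 0.05, beside 13.6% of all genes). DESeq2 called 2, Sox9 and Epcam, at adjusted p-values of 0.00286 and 0.0421, beside 9.14% of all genes in either direction. Summed endothelial markers were lower in every TET1 KO liver, at 118 to 141 CPM against 143 to 145 CPM. Each of the 6 markers overlapped between the groups, and Kdr had a positive log2 fold change (0.089). Lyve1 alone was lower at an unadjusted p under 0.05 (log2 fold change -1.08, edgeR adjusted p = 0.0778), beside 12.7% of all genes. DESeq2 called Lyve1 alone (adjusted p = 0.0140), beside 9.14% of all genes in either direction. Summed erythroid markers were 219, 488, 427 and 1113 CPM in TET1 KO replicates 1 to 4 and 777 to 870 CPM in the WT livers. The part of these markers in the results was not tested.

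Promoter sequence is shown for Cpt1a and Cpt2, the CPT enzymes of liver, and for Bbox1, a member without overlap between the genotypes. Each is the stretch of 250 bases before a RefSeq transcript start in GRCm38.p6, written 5′ to 3′ on the gene's strand. The Cpt1a window lies at chr19:3323051-3323300 on the plus strand, that of Cpt2 at chr4:107923590-107923839 on the minus strand and that of Bbox1 at chr2:110305726-110305975 on the minus strand. The Cpt1a and Bbox1 windows lie within the outer limits of their genes, since RefSeq also lists transcripts that start further upstream. Capitals mark AGGTCA (a nuclear receptor half-site), GGGCGG (a GC box), CCAAT and TATAAA, each searched on both strands.
Cpt1a: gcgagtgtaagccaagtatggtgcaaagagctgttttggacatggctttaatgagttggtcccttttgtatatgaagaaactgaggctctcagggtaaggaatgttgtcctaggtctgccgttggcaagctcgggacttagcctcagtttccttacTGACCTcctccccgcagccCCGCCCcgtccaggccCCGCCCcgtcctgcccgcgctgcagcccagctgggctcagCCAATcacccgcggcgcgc
Cpt2: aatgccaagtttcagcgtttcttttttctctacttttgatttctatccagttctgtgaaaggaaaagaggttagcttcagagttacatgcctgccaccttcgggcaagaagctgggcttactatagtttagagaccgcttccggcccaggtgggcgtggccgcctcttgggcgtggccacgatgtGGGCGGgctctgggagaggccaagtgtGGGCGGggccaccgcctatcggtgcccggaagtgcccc
Bbox1: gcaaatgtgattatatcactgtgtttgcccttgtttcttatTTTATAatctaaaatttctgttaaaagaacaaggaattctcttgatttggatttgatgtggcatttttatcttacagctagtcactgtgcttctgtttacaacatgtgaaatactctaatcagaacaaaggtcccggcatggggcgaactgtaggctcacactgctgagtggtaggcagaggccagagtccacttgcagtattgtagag
The window of Cpt1a held 1 AGGTCA, 2 GGGCGG and 1 CCAAT, that of Cpt2 held 2 GGGCGG, and that of Bbox1 held 1 TATAAA. Over 32851 promoter windows of the same length, AGGTCA was present in 14.0%, GGGCGG in 32.7%, CCAAT in 33.9% and TATAAA in 12.4%. A direct repeat of the half-site AGGNCA with 1 base between the copies (DR1) occurred in 0.338% of windows and in none of the 5 members with a window (Cpt1a, Cpt2, Crot, Slc22a5 and Bbox1). The GC content was 59.6% for Cpt1a, 56.8% for Cpt2 and 39.6% for Bbox1. These matches are letters in a window, and no binding was measured in these livers.

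With the genotypes compared, 6 of the 8 carnitine shuttle genes had a negative log2 fold change, though Cpt1a, Slc22a5 and Crat overlapped between the groups. Cpt1b was higher in every TET1 KO liver, and none of the 8 passed the edgeR test over all genes. Of the 8 members 0 were called by edgeR, where 2.02% of all tested genes were called, 0.874% higher and 1.15% lower. At an unadjusted p under 0.05 there were 5 members, 4 lower and 1 higher, against 26.3% of all genes, 12.7% lower and 13.6% higher. DESeq2 called 5 members, again 4 lower (Tmlhe, Crot, Crat and Bbox1) and 1 higher (Cpt1b), where it called 9.14% of all genes. The groups did not overlap for 3 lower members (Tmlhe, Crot and Bbox1) and for Cpt1b, compared with 10.8% of all genes lower and 11.7% higher without overlap. The median log2 fold change of the 8 members was -0.50, and that of all tested genes was 0.012. The median of the members was -0.31 without WT replicate 2.

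**Figure D1:**
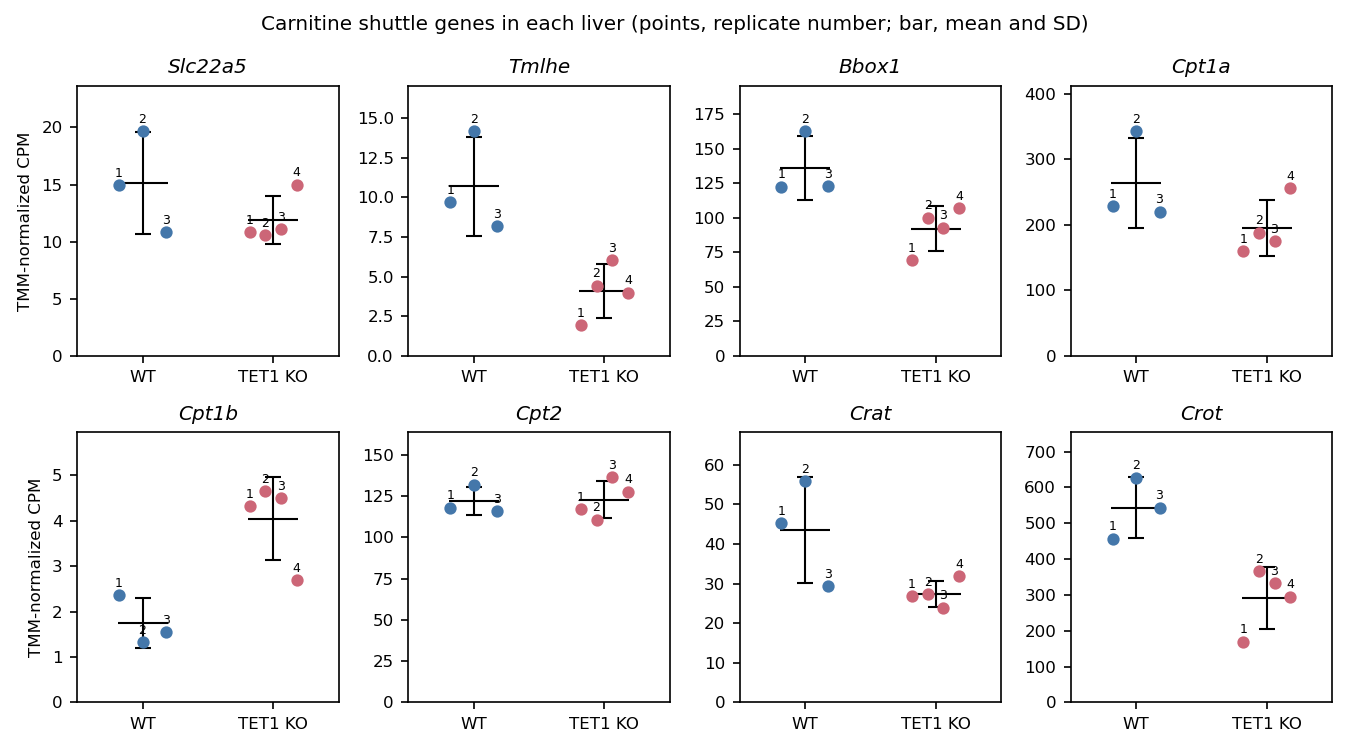
TMM-normalized CPM of each carnitine shuttle gene in 3 WT and 4 TET1 KO livers, on linear axes that start at 0. Points are livers with their replicate number, and the bars are the mean and SD. Tmlhe, Bbox1 and Crot lie lower in all TET1 KO livers than in any WT liver, Cpt1b lies higher, and Cpt2 overlaps fully.

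For carnitine supply, the mRNA of one transporter and of the enzymes that open and close carnitine synthesis was measured. Slc22a5, which encodes the carnitine transporter OCTN2 (GRCm38.p6, chromosome 11 from 53864542 to 53891796), had 15.0, 19.7 and 10.8 CPM in WT replicates 1 to 3 and 10.8, 10.6, 11.1 and 15.0 CPM in TET1 KO replicates 1 to 4. The groups overlapped, with a log2 fold change of -0.35 (SE 0.21, 95% interval -0.82 to 0.11) and an edgeR adjusted p of 0.304. It was -0.12 without WT replicate 2 and -0.56 without WT replicate 3.

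Tmlhe, the mitochondrial hydroxylase of trimethyllysine, is listed on chromosome X. It had 9.70, 14.2 and 8.17 CPM in the WT livers and 1.94, 4.44, 6.04 and 3.99 CPM in the TET1 KO livers, and its counts ran from 148 to 342 and from 31 to 118. Every TET1 KO liver lay under the lowest WT liver, and TET1 KO replicate 1 was lowest. This was the largest decrease in fold change among the members, with a log2 fold change of -1.38 (SE 0.32, 95% interval -2.07 to -0.68). Its edgeR adjusted p was 0.0518, just outside the threshold, while DESeq2 gave an adjusted p of 0.00187.

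Bbox1, whose product makes carnitine from butyrobetaine (chromosome 2 from 110264056 to 110314813), had 123, 163 and 123 CPM in the WT livers. The TET1 KO livers had 69.4, 100.1, 92.9 and 107 CPM, all under the WT values. This gave a log2 fold change of -0.56 (SE 0.17, 95% interval -0.94 to -0.18), with adjusted p-values of 0.0886 from edgeR and 0.0355 from DESeq2. The enzymes between TMLHE and BBOX1 differed less in mean. Aldh9a1, the dehydrogenase of the pathway, had 225 ± 16.6 CPM (SD, n = 3) in WT and 220 ± 13.9 CPM (SD, n = 4) in TET1 KO livers. Shmt1 and Shmt2, serine hydroxymethyltransferases that have been proposed for its aldolase step, lay at log2 fold changes of -0.085 and 0.20 (edgeR adjusted p = 0.810 and 0.299).

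The carnitine palmitoyltransferases gave different values for each form. Cpt1a, the main CPT1 of liver (chromosome 19 from 3322326 to 3385735), had 228, 343 and 220 CPM in WT livers and 160, 188, 176 and 257 CPM in TET1 KO livers. TET1 KO replicate 4 lay above 2 of the 3 WT livers, so the groups overlapped. On the log2 scale the fold change was -0.44 (SE 0.20, 95% interval -0.89 to 0.01), with an edgeR adjusted p of 0.201. Without WT replicate 2, the highest of all livers, it was -0.21.

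Cpt1b (chromosome 15 from 89416405 to 89425862) was the one member with a higher level in every TET1 KO liver. Its counts were 48, 32 and 28 in WT replicates 1 to 3 and 69, 66, 88 and 58 in TET1 KO replicates 1 to 4, which is 2.36, 1.33 and 1.55 CPM against 4.32, 4.65, 4.50 and 2.69 CPM. TET1 KO replicate 4 was the lowest of its group and lay close to WT replicate 1. The estimated log2 fold change was 1.21 (SE 0.29, 95% interval 0.57 to 1.84), with adjusted p-values of 0.0567 from edgeR and 0.0102 from DESeq2. Without TET1 KO replicate 2, the liver with adipocyte markers, it was 1.12 with an edgeR adjusted p of 0.119.

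Cpt2 (chromosome 4 from 107903982 to 107923589) differed least. It had 118, 132 and 116 CPM in the WT livers and 117, 111, 136 and 128 CPM in the TET1 KO livers, and the ranges overlapped throughout. Its log2 fold change was 0.012 (SE 0.13), the sign turned with the scaling, and the 95% interval from -0.27 to 0.29 bounds the difference that these livers allow. Slc25a20, the carrier that moves acylcarnitine across the inner membrane between CPT1 and CPT2, had 119 ± 14.0 CPM (SD, n = 3) in WT and 99.4 ± 6.95 CPM (SD, n = 4) in TET1 KO livers (log2 fold change -0.25, edgeR adjusted p = 0.229), the groups did not overlap, and the fold change was -0.16 without WT replicate 2. Cpt1c, the neuronal form, was near the detection limit with 2 to 22 counts, and its log2 fold change of -0.84 had an SE of 0.51.

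The short- and medium-chain carnitine acyltransferases were both lower in mean. Crat (chromosome 2 from 30400476 to 30416017) had 45.2, 55.8 and 29.3 CPM in the WT livers and 26.8, 27.3, 23.9 and 31.8 CPM in the TET1 KO livers. WT replicate 3 lay within the TET1 KO range, and the log2 fold change of -0.66 (SE 0.20, 95% interval -1.10 to -0.23) had an edgeR adjusted p of 0.0851. It was -0.90 without WT replicate 3 and -0.45 without WT replicate 2, with edgeR adjusted p-values of 0.0258 and 0.356. Crot, the peroxisomal octanoyltransferase (chromosome 5 from 8966033 to 8997146), had 457, 627 and 543 CPM in the WT livers and 169, 366, 333 and 295 CPM in the TET1 KO livers. No TET1 KO liver reached the lowest WT liver. Its log2 fold change was -0.90 (SE 0.24, 95% interval -1.42 to -0.38), with adjusted p-values of 0.0683 from edgeR and 0.00551 from DESeq2.

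**Figure D2:**
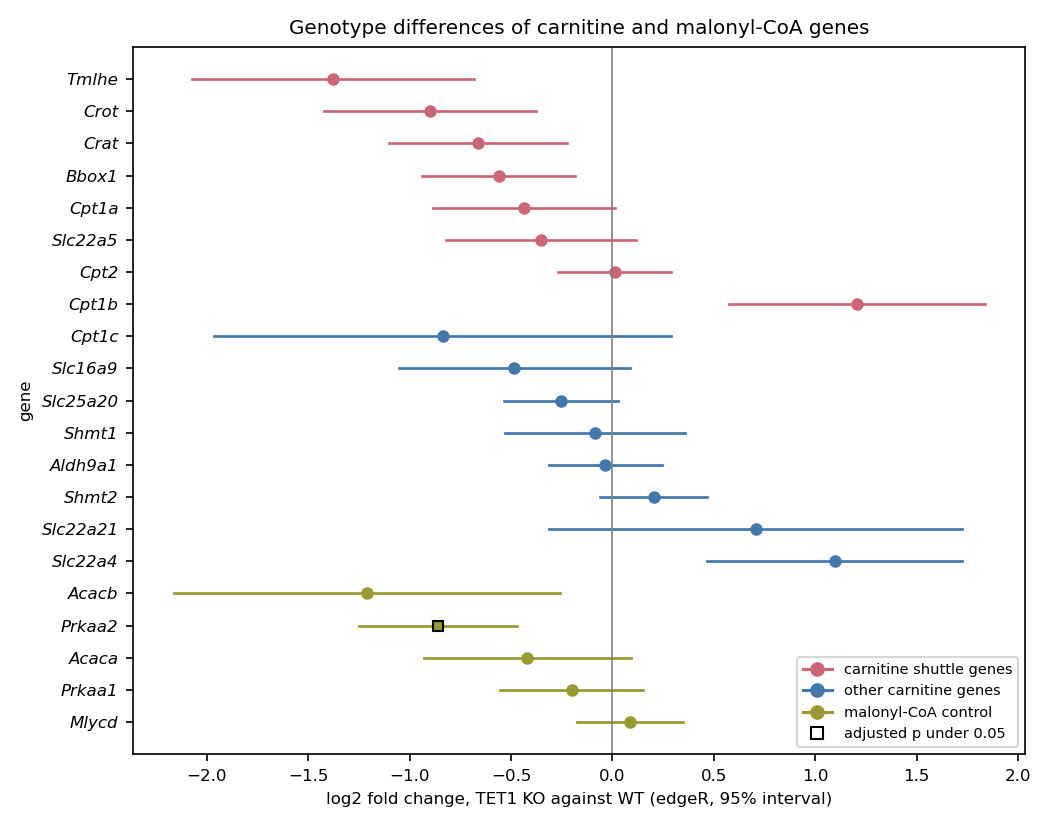
The log2 fold change of TET1 KO against WT with its 95% interval from edgeR, for the carnitine shuttle genes, other carnitine genes and the malonyl-CoA genes. The square marks Prkaa2, which passed the adjusted p threshold. Among the carnitine shuttle genes the values run from -1.38 for Tmlhe to 1.21 for Cpt1b, with Cpt2 at 0.012.

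The contrast of Cpt1b with Cpt1a was then taken within each liver, where library size cancels. Counts of Cpt1b per 100 counts of Cpt1a were 1.03, 0.386 and 0.701 in WT replicates 1 to 3 and 2.70, 2.47, 2.56 and 1.05 in TET1 KO replicates 1 to 4. The ratios of 3 TET1 KO livers lay well above the WT livers, and that of replicate 4 was about the same as the highest WT liver. The mean log2 ratio was higher by 1.64 (SE 0.52), a fold of 3.12. An exact permutation test, two-sided, gave p = 0.0571, since 2 of the 35 splits differed by at least as much. The difference was 1.26 without WT replicate 2 and 1.97 without TET1 KO replicate 4. Muscle markers were near the detection limit in all livers, with 11 of 16 at or under 3 counts in every library and sums of 2.32 to 2.66 CPM in WT and 2.32 to 3.62 CPM in TET1 KO livers. Mb and Actn3 had 0 counts throughout, and Ckm had 1 count in TET1 KO replicate 4 alone. Mylpf was detected in all livers at 13 to 22 counts and was higher in every TET1 KO liver (0.916 to 1.13 CPM against 0.539 to 0.886 CPM), with a log2 fold change of 0.47 (SE 0.33, edgeR adjusted p = 0.370). Pygm, Casq1 and Acta1 were detected in all livers at 2 to 25 counts and overlapped. Tnni2 had 15 counts (0.696 CPM) in TET1 KO replicate 4 and at most 2 counts in any other liver. The part of these markers in the Cpt1b value was not tested.

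The gene next to Cpt1b shares annotated exon bases with it. Chkb, a choline kinase, lies directly upstream of Cpt1b on the same strand (chromosome 15 from 89426349 to 89429927), and transcripts that run from Chkb into Cpt1b are annotated. In GENCODE M1 (NCBIM37), 2744 of the 3372 exon bases of Cpt1b, or 81.4%, also belong to an exon listed for Chkb. Which annotation release the counts rest on, and how reads that fit both genes were assigned, is not given in the sources used here. Chkb had 71.4, 41.0 and 48.1 CPM in the WT livers and 106, 73.8, 91.6 and 65.1 CPM in the TET1 KO livers (log2 fold change 0.65, SE 0.22, edgeR adjusted p = 0.102). Counts of Cpt1b per 100 counts of Chkb were 3.31, 3.23 and 3.21 in the WT livers, within a narrow range, and 4.09, 6.30, 4.91 and 4.13 in the TET1 KO livers. The mean log2 difference of this ratio was 0.55 (SE 0.15), which was not tested, and the part of shared reads in the Cpt1b value was not tested either.

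**Figure D3:**
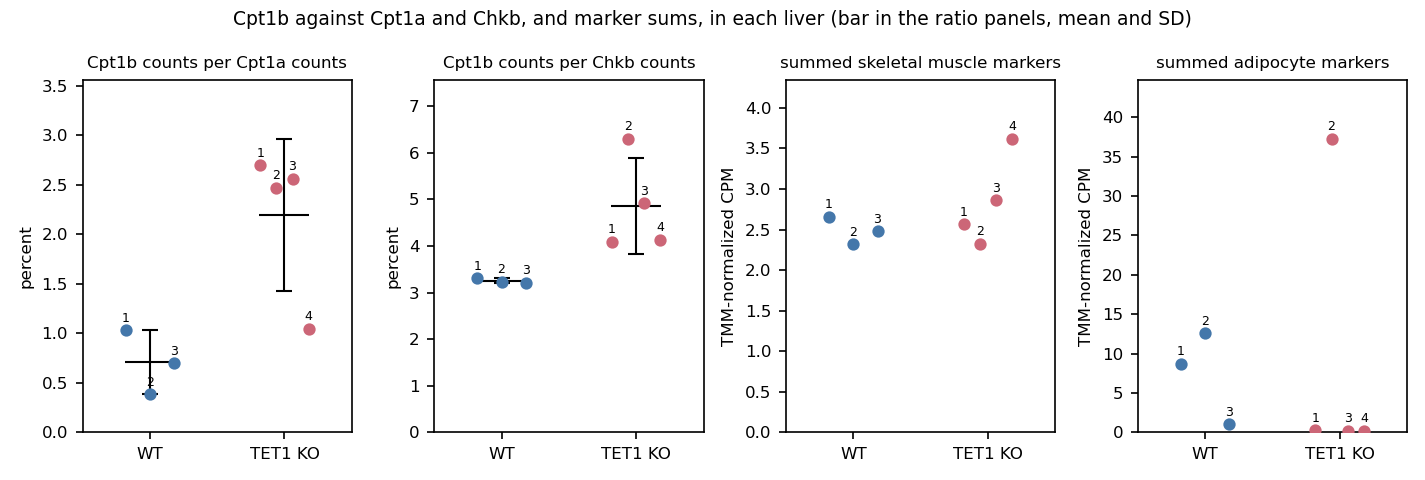
Counts of Cpt1b as a percent of Cpt1a counts and of Chkb counts in each liver, and the summed TMM-normalized CPM of skeletal muscle and adipocyte markers. Points are livers with replicate numbers, and bars in the ratio panels are the mean and SD. TET1 KO replicate 4 has 1.05% of Cpt1a beside 1.03% in WT replicate 1, and the adipocyte markers stand out in TET1 KO replicate 2 at 37.3 CPM.

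Levels of different genes were compared per kb of exon in GENCODE M1, which holds 7 of the 8 members and not Tmlhe. In WT livers the order of the levels was Crot at 99.4 CPM per kb, Cpt1a at 61.4, Cpt2 at 51.4, Bbox1 at 30.9, Crat at 8.06, Slc22a5 at 4.94 and Cpt1b at 0.517. The ranges of Cpt1a and Cpt2 overlapped, as did those of Crat and Slc22a5, and the other neighbours did not. In TET1 KO livers Crot (53.3 CPM per kb), Cpt2 (51.8) and Cpt1a (45.4) had overlapping ranges, followed by Bbox1 at 21.0, Crat at 5.09, Slc22a5 at 3.87 and Cpt1b at 1.20, where the ranges of Crat and Slc22a5 again overlapped. Per kb, Cpt1b made up 0.893% ± 0.406 (SD, n = 3) of Cpt1a and Cpt1b together in WT and 2.72% ± 0.938 (SD, n = 4) in TET1 KO livers. With only the 628 exon bases that Cpt1b does not share with Chkb as its length, the shares were 4.59% ± 2.02 (SD, n = 3) and 12.9% ± 4.18 (SD, n = 4). By that length, tried after the data were seen, Cpt1b had 2.78 CPM per kb (range 2.11 to 3.76) in WT livers, the lowest mean but with a range that overlapped Slc22a5, and 6.43 CPM per kb (range 4.28 to 7.40) in TET1 KO livers, a mean above those of Crat and Slc22a5 with overlapping ranges, so its last place in TET1 KO livers depended on the length. Cpt1a was thus the main CPT1 transcript in every liver under either length.

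In 6 related lists edgeR called 2 of 57 tested genes (Prkaa2 and Pparg), or 3.51%, beside 2.02% of all tested genes. Of 10 other carnitine genes, 8 were tested and 0 were called by edgeR. Slc22a4 alone was higher at an unadjusted p under 0.05, beside 13.6% of all genes. DESeq2 called it alone, beside 9.14% of all genes in either direction. Slc22a4, the transporter OCTN1 that lies near Slc22a5 on chromosome 11, had 2.36, 1.74 and 1.66 CPM in the WT livers and 6.01, 3.03, 4.14 and 3.29 CPM in the TET1 KO livers, with no overlap. The estimate was a log2 fold change of 1.10 (SE 0.29), with adjusted p-values of 0.0664 from edgeR and 0.0215 from DESeq2. Slc22a21, a related carnitine transporter, had a log2 fold change of 0.71 (SE 0.46) from 6 to 24 counts. Slc16a9, a monocarboxylate transporter linked to carnitine efflux, had a log2 fold change of -0.48 (SE 0.26) and an edgeR adjusted p of 0.252.

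Malonyl-CoA, the inhibitor of CPT1, is made by acetyl-CoA carboxylase and removed by malonyl-CoA decarboxylase, and AMPK inhibits the carboxylase. Of these 5 genes 1 was called by edgeR, beside 2.02% of all tested genes. Prkaa2, a catalytic subunit of AMPK, fell, with 37.7, 63.5 and 44.7 CPM in the WT livers and 28.4, 26.1, 23.2 and 29.4 CPM in the TET1 KO livers. The difference on the log2 scale was -0.86 (SE 0.18, edgeR adjusted p = 0.0383). This call was kept without WT replicate 1 or TET1 KO replicate 4 and lost without any other liver, where the edgeR adjusted p ran from 0.0575 (without WT replicate 3) to 0.149 (without WT replicate 2). Acacb, the carboxylase on the mitochondrial surface, had 20.8, 42.9 and 22.2 CPM in the WT livers and 11.6, 11.3, 4.19 and 22.3 CPM in the TET1 KO livers. TET1 KO replicate 4 lay within the WT range, and the log2 fold change of -1.21 had an SE of 0.43 and an edgeR adjusted p of 0.118. It was -1.67 without TET1 KO replicate 4 and -0.80 without WT replicate 2, with edgeR adjusted p-values of 0.0368 and 0.457. The log2 fold changes of Acaca, the cytosolic carboxylase, Prkaa1, the other AMPK catalytic subunit, and Mlycd, the decarboxylase, were -0.42, -0.20 and 0.086, and none was called. These values are mRNA, and for protein the study reported no effect of TET1 KO on AMPK or phosphorylated AMPK.

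Of the genes on either side of the shuttle 0 were called by edgeR, and most had negative fold changes. At an unadjusted p under 0.05, 1 acyl-CoA synthetase was lower, 5 mitochondrial beta-oxidation genes were lower and 1 higher, and 5 peroxisomal genes were lower, of 4, 15 and 12 tested and beside 12.7% of all genes lower and 13.6% higher. DESeq2 called 1 synthetase lower, 2 mitochondrial genes lower and 1 higher, and 3 peroxisomal genes lower, beside 9.14% of all genes in either direction. For the long-chain acyl-CoA synthetases, which supply CPT1, 4 of 5 were tested with a median log2 fold change of -0.14 (-0.24 without TET1 KO replicate 1, -0.22 without WT replicate 1, -0.078 without WT replicate 2 and -0.23 with scaling to library size only), and Acsl5 had the smallest p, with a log2 fold change of -0.71 (SE 0.20, edgeR adjusted p = 0.0789). For mitochondrial beta-oxidation 12 of 15 genes had a negative log2 fold change, with a median of -0.28. Etfdh, which passes electrons from the acyl-CoA dehydrogenases to ubiquinone, had the smallest p, with 144, 265 and 171 CPM in the WT livers and 40.3, 88.5, 91.6 and 123 CPM in the TET1 KO livers (log2 fold change -1.17, SE 0.32, edgeR adjusted p = 0.0730). The 1 higher gene was Etfb, named here after its values were seen. Its log2 fold change was 0.56 (SE 0.16), with adjusted p-values of 0.0781 from edgeR and 0.0178 from DESeq2 and no overlap. For peroxisomal beta-oxidation, which feeds CROT, 10 of 12 were negative with a median of -0.34 (-0.18 without WT replicate 2 and -0.52 without WT replicate 3), and Hsd17b4, the D-bifunctional protein, had a log2 fold change of -0.71 (SE 0.19, edgeR adjusted p = 0.0690). Over all tested genes 7211 of 14754 had a negative log2 fold change.

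Among 13 regulators of Cpt1, the median log2 fold change was 0.12 (0.24 without WT replicate 2 and 0.023 with scaling to library size only). By edgeR 1 gene was called, beside 2.02% of all genes. At an unadjusted p under 0.05, 2 were higher and 1 lower, beside 13.6% and 12.7% of all genes. DESeq2 called 1 higher and 1 lower, beside 9.14% of all genes in either direction. The one higher by DESeq2 was Ppargc1b, a coactivator named here after its values were seen, with a log2 fold change of 0.93 (edgeR adjusted p = 0.0973, DESeq2 adjusted p = 0.0470). Pparg, the nuclear receptor best known from adipocytes, fell, with 17.1, 15.4 and 8.11 CPM in the WT livers and 2.44, 6.06, 4.35 and 4.69 CPM in the TET1 KO livers (log2 fold change -1.63, SE 0.31, edgeR adjusted p = 0.0265). The call was lost without WT replicate 1, WT replicate 2 or TET1 KO replicate 3, with edgeR adjusted p-values of 0.0549, 0.149 and 0.0786. Ppara, the fatty acid receptor that drives many of these genes in liver, had 40.0, 66.7 and 38.7 CPM in the WT livers and 63.2, 42.8, 40.0 and 36.6 CPM in the TET1 KO livers. Its groups overlapped, and its log2 fold change of -0.088 (SE 0.23, 95% interval -0.60 to 0.42) changed sign when WT replicate 2 was left out.

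**Figure D4:**
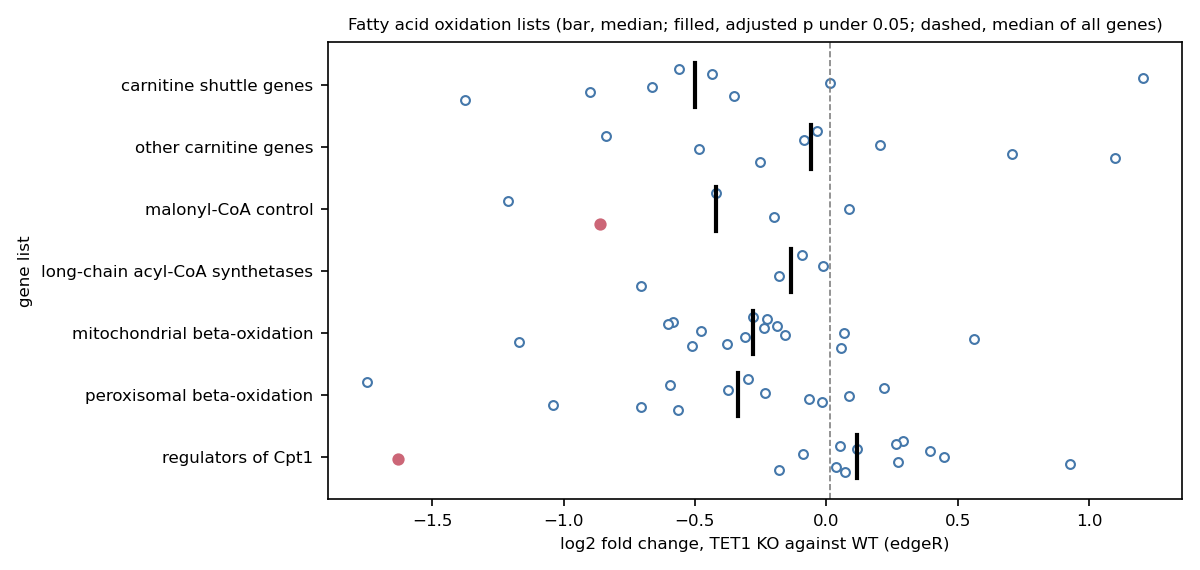
The log2 fold change of every tested gene in the carnitine shuttle and 6 related lists. Each point is a gene, the bar is the median of the list, filled points passed the adjusted p threshold and the dashed line is the median of all tested genes. The carnitine shuttle median is -0.50 and that of the malonyl-CoA genes -0.42, an order that turned without TET1 KO replicate 1 (-0.40 and -0.66), and the regulators of Cpt1 have a median of 0.12.

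Genes whose pattern over the 7 livers was most like that of Cpt1a or Cpt1b were listed by the root mean square (RMS) difference of centred log2 CPM. Zwint (RMS 0.0641), Cep19 (0.0844) and Gm48551 (0.0887) were nearest to Cpt1a, and each, like Cpt1a, was highest in WT replicate 2. Zwint had 38.4, 57.6 and 38.9 CPM in the WT livers and 26.4, 30.9, 29.0 and 38.6 CPM in the TET1 KO livers. Nearest to Cpt1b were Sbsn (RMS 0.165), Clec2d (0.169) and Tmem25 (0.171), all of them lowest in WT replicate 2. Tmem25 passed the test over all genes, with a log2 fold change of 1.08 (SE 0.20, edgeR adjusted p = 0.0245).

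Single livers carried much of the variation among the members. WT replicate 2 was the highest liver for 6 of the 8 members, and TET1 KO replicate 1 was the lowest for 4. Leaving out WT replicate 2 brought the fold change nearest to 0 for 6 members (Slc22a5, Tmlhe, Bbox1, Cpt1a, Cpt1b and Crat). It then was -1.12 for Tmlhe, -0.79 for Crot and 1.02 for Cpt1b, with edgeR adjusted p-values of 0.259, 0.285 and 0.260. Without TET1 KO replicate 1, that of Crot was -0.71 and that of Tmlhe -1.15. The direction of every member except Cpt2 held whichever single liver was omitted.

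**Figure D5:**
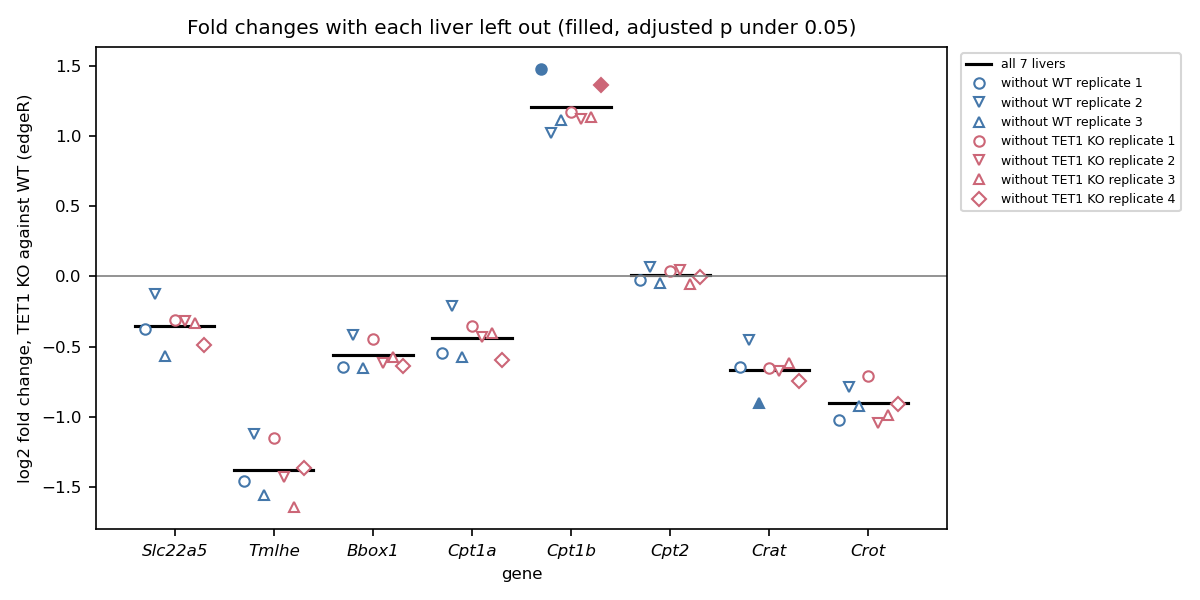
The log2 fold change of each carnitine shuttle gene from edgeR with each liver left out in turn (symbols) and with all 7 livers (black bars). Filled symbols passed the adjusted p threshold, which happened for Cpt1b without WT replicate 1 or TET1 KO replicate 4 and for Crat without WT replicate 3. The values without WT replicate 2 lie nearest to 0 for 6 members.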

How the data were processed

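Liver mRNA of 3 WT and 4 TET1 KO male mice was measured, 1 library per mouse, and groups were taken from the sample titles. The authors deposited raw read counts per Ensembl gene for each library, without normalization, made per the labels with Trimmomatic 0.36, GSNAP and featureCounts 1.5.3 on GRCm38. The libraries were stranded, and the strand setting of the counting and the annotation release are not given in the sources used here. The labels name poly(A) selection or, alternatively, removal of rRNA. Genes were joined by Ensembl identifier, and 5 repeated entries with equal counts were left out of 51431.

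Counts were tested in R 4.3.3 with edgeR 4.0.16 (filterByExpr, TMM, glmQLFit and glmQLFTest, no covariate), with Benjamini-Hochberg adjustment over 14754 genes. In each library no less than 99.881% of counts fell on genes that were kept, and the common BCV (the biological spread between mice) was 0.208. The SE is the size of the log2 fold change over the root of its F. At a depth of 15.0 to 22.7 counts per CPM before scaling, members at a few CPM rest on few counts. Separate libraries of a group differed by more than sampling noise, with a lowest chi-square per degree of freedom of 21.5, and the p-values measure the spread between mice. The ratio of Cpt1b to Cpt1a used a prior of 0.5 count and the exact permutation test of SciPy 1.17.1 on the absolute difference of means. Positions and promoters are from RefSeq (GRCm38.p6), where 5 of 8 members had a promoter window, and exon lengths are from GENCODE M1 (NCBIM37), matched by Ensembl identifier.

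The members, gene lists and tests were chosen with earlier results of these data known. Genes named are the members, the tested genes of the other carnitine and malonyl-CoA lists, up to 3 called genes or else the gene with the smallest p of each other list, Ppara, the 3 genes nearest to Cpt1a and to Cpt1b, Tet1 and Chkb. Marker genes, Ppargc1b and Etfb were named after their values were seen. The statistics were tested on simulated data with 100 genes changed by a log2 size of 1 and 100 by 2. At a size of 1 edgeR recovered 63 and DESeq2 71, and at a size of 2 they recovered 89 and 90. Among unchanged genes edgeR made 9 false calls and DESeq2 made 25. Alternatives were DESeq2 1.42.0, RLE size factors, library size only, other filters, robust dispersions, a replicate block, other priors and leaving out each mouse. Figures were drawn with matplotlib 3.10.9.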

Additional observations from a re-analysis of the deposited data

Results flagged for a closer look

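Among 46 values examined in the 4 TET1 KO livers (33 genes, 9 marker sums and 4 ratios), 5 had 1 liver whose gap to the nearest other liver took up more of the range of the group than Dixon's 95% critical value allows. Chance gives this in about 1 in 20 groups, or 2.3 of 46 values, and the values are not independent.

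TET1 KO replicate 4 stood apart from the other TET1 KO livers in 3 of them. The gap was 0.832 of the range for Cpt1b (2.69 CPM against 4.32 to 4.65 CPM), 0.862 for the ratio of Cpt1b to Cpt1a (1.05% against 2.47% to 2.70%) and 0.879 for Slc22a5 (15.0 CPM against 10.6 to 11.1 CPM, with WT livers at 10.8 to 19.7 CPM). Without this liver the log2 fold change was 1.36 for Cpt1b, with an edgeR adjusted p of 0.0267 (1.02 and 0.260 without WT replicate 2), and the log2 difference of the ratio was 1.97.

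TET1 KO replicate 2 stood apart in the summed adipocyte markers, with a gap of 0.999 of the range (37.3 CPM against 0.205 to 0.250 CPM), and in the summed T and B cell markers, with a gap of 0.859 (7.26 CPM against 3.57 to 4.09 CPM). Without it the log2 fold change of Cpt1b was 1.12, with an edgeR adjusted p of 0.119.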

How the results depend on the processing

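Every member except Cpt2 kept its direction under all 14 alternatives, while the number of calls depended on the test. For all genes edgeR called 129 higher and 169 lower (43.3% higher). DESeq2 called 633 and 699, no filter on low counts 245 and 347, and library size only 107 and 312 (25.5% higher). For the 8 members, with 0 called in each direction, DESeq2 called 1 higher and 4 lower, no filter 1 higher and 2 lower, library size only 2 lower, and an adjusted p under 0.1, which 11.3% of all genes pass, 1 higher and 4 lower. For the related lists, with 0 higher and 2 lower, DESeq2 called 3 higher and 8 lower and no filter 4 lower. Leaving out 1 mouse at a time gave 16 to 427 genes higher and 22 to 464 lower, 0 to 1 members higher and 0 to 1 lower, and 0 to 2 listed genes higher and 0 to 7 lower. The lowest counts over all genes came without WT replicate 2 and the highest without TET1 KO replicate 4. The edgeR adjusted p of a member over these 7 fits ran from 0.0501 to 0.259 for Tmlhe, 0.0267 to 0.260 for Cpt1b, 0.0638 to 0.285 for Crot, 0.0258 to 0.356 for Crat and 0.0604 to 0.348 for Bbox1.

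The log2 fold change of Cpt2 was -0.013 with DESeq2, -0.0020 with RLE size factors, -0.083 with library size only, -0.015 with no filter and -0.054 to 0.065 with 1 mouse left out, and that of Ppara ran from -0.29 to 0.21 with 1 mouse left out. With 1 mouse left out, the median of the members ran from -0.62 to -0.31 and that of the malonyl-CoA list from -0.66 to -0.22. The cause of these shifts was not tested.

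The log2 difference of Cpt1b against Cpt1a lay between 1.26 and 1.97 with 1 mouse left out, was 1.61 with a prior of 2 counts and 1.65 with none, and kept p = 0.0571 by exact permutation when the one-sided p was doubled, a choice added after seeing the data. Also added then, the share of Cpt1b per kb moved from 0.893% to 4.59% in WT and from 2.72% to 12.9% in TET1 KO livers with only its own exon bases, and with 1 mouse left out it lay at 0.688% to 1.09% and 2.51% to 3.18%.

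The replicate numbers do not pair the mice by any label, and deviations of same-numbered livers correlated at 0.209, -0.123 and -0.0964. With the number as a replicate block, edgeR called 670 genes higher and 656 lower, 1 member higher and 4 lower, and 3 listed genes higher and 10 lower. Under this block the log2 fold change of Cpt2 was -0.0097 and that of Ppara 0.023, and the Cpt1b to Cpt1a difference over numbers 1 to 3 was 1.97 (exact permutation p = 0.25, the smallest that 3 pairs allow).

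With 28 to 88 counts, Cpt1b is limited by counting as well as by the number of mice.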

Other observations

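Ratios of neighbouring transporters and enzymes were also taken within each liver. Counts of Slc22a4 per 100 counts of Slc22a5, the transporters OCTN1 and OCTN2, were 15.8, 8.84 and 15.3 in WT replicates 1 to 3 and 55.5, 28.7, 37.3 and 22.0 in TET1 KO replicates 1 to 4. All TET1 KO livers lay above the WT livers, with a mean log2 difference of 1.38 (SE 0.39). Counts of Cpt2 per 100 counts of Cpt1a were 51.6, 38.4 and 52.7 in the WT livers and 73.1, 58.9, 77.6 and 49.7 in the TET1 KO livers, where replicate 4 lay within the WT range. Neither ratio was tested, and both were chosen after the values were seen.

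Ucp1, the uncoupling protein of brown fat, had 264 counts in TET1 KO replicate 2 and 0 counts in the other 6 livers. In the same liver Adipoq had 60 and Plin1 had 70 counts, against at most 9 and 4 counts elsewhere. Cidea, which was on the list of adipocyte markers, was also detected in WT livers, at 8.66, 11.3 and 0.883 CPM in replicates 1 to 3, and at 6.69 CPM in TET1 KO replicate 2. WT replicate 1 had 176 counts of Cidea and 0 counts of Adipoq, Plin1 and Lep.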
